A study of Homo sapiens with 18 samples.

Results

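Aminoacyl-tRNA synthetases were taken as every gene of the count table whose symbol is a 1-letter amino acid code followed by ARS, with or without a closing 1, 2, 3, A, B or L2. This rule used names only and found 37 of the 43735 genes listed. The suffix 2 marked 17 of them as mitochondrial enzymes and the other 20, among them the TARS-like gene TARSL2, were treated as cytosolic. The gene for the bifunctional glutamyl-prolyl enzyme, EPRS, does not follow this naming and was kept apart. RNA was sequenced from 2 human multiple myeloma lines of the same origin, the glucocorticoid-sensitive MM1S and the glucocorticoid-resistant MM1R, which lacks a working glucocorticoid receptor. Each line gave 3 untreated libraries, 3 after RSL3 (5 µM, 3 h) and 3 after Fer-1 (2 µM, 2 h) followed by the same dose and time of RSL3, which makes 6 groups. RSL3 inhibits the lipid peroxidase GPX4 and starts ferroptosis, an iron-dependent cell death by lipid peroxidation, and Fer-1 (ferrostatin-1) inhibits that process. No library held Fer-1 alone. The 3 libraries of a group were cells of 1 culture line at different passages (4, 6 and 7 of MM1R and 16, 22 and 23 of MM1S), and every passage had a library of each treatment.

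Each synthetase joins 1 amino acid to its transfer RNAs, which then carry it to the ribosome, and most amino acids have separate nuclear genes for the cytosolic and the mitochondrial enzyme. GARS and KARS are exceptions that encode both forms. When amino acids run short or the endoplasmic reticulum is under stress, phosphorylation of eIF2 raises translation of the transcription factor ATF4, which binds C/EBP-ATF response elements in the promoters of amino acid synthesis genes, transporters and several cytosolic synthetases. Myeloma cells secrete large amounts of protein and depend on this balance of amino acid supply and translation.

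The element is shown here because the members that hold it are set against those that do not further on. The letters TGATGNAA (N, any base) were searched on both strands of RefSeq promoters on GRCh38.p14, from 250 bases before to 50 after each start. Promoters were given for 29 of the 37 members, and 8 of the 29 held the element, against 4.457% of the 27305 genes with a promoter. These were 7 of 15 cytosolic members and 1 of 14 mitochondrial ones (YARS2). Each line gives 30 bases of the gene's own strand with the element in capitals, and the position of its first base relative to the start.
GARS, glycine, chr7:30594834-30594863, plus strand, position -33: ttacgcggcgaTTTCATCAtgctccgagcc
TARS, threonine, chr5:33440956-33440985, plus strand, position 2: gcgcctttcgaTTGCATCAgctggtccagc
CARS, cysteine, chr11:3057407-3057436, minus strand, position -2: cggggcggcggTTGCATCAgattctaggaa
MARS, methionine, chr12:57488053-57488082, plus strand, position -4: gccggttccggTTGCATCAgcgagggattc
AARS, alanine, chr16:70289675-70289704, minus strand, position -187: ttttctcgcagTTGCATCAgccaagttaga
NARS, asparagine, chr18:57621804-57621833, minus strand, position 14: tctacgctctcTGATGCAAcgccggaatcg
IARS, isoleucine, chr9:92293692-92293721, minus strand, position -13: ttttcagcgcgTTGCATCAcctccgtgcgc
In 6 of these 7 windows the element lay on the strand opposite to the gene and is read here in reverse complement, and in NARS it lay on the gene's strand. A match of letters is not evidence of a bound site.

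Total counts per library were 17635438 to 19368343, and the members took 0.353% to 0.490% of them. Of 11 plasma cell markers, 10 were present in every library, from CD38 (41.0 CPM at the lowest) to JCHAIN (4808 to 12657 CPM), and CD27 stayed at or below 0.36 CPM. Markers of other cell types summed to at most 47.0 CPM. The monocyte marker CD14 was at or below 0.38 CPM and ALB, the liver's albumin gene, at or below 0.26 CPM. The others had counts in every library. PECAM1 (endothelium) had 9.79 to 24.95 CPM, CD3E (T cell) 3.26 to 11.5 CPM and HBB (red cell) 3.40 to 12.7 CPM. COL1A1 (fibroblast) had 0.45 to 19.5 CPM and EPCAM (epithelium) 0.31 to 1.51 CPM. NR3C1, the glucocorticoid receptor gene, had 13.8 to 14.9 CPM in untreated MM1R and 89.9 to 152 CPM in untreated MM1S libraries. Of the libraries, 3 stood apart. The MM1R library with Fer-1 and RSL3 of passage 6 was high in a set of 18 genes that mark the MM1S line. Their level there lay a median of 45.7% of the way from the mean of the other MM1R libraries to the MM1S mean. The untreated MM1S library of passage 22 and the RSL3-treated MM1S library of passage 16, which had the lowest scaling factor (0.864), stood apart in the members themselves. Some results that rest on these libraries are given with and without them. Counts over passages, overlaps of groups and the splits of members include all 3.

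Per length, the cytosolic enzymes were the more abundant transcripts. In untreated MM1R cells GARS led with 122 ± 8.1 RPKM (counts per kilobase of transcript, scaled by library size, mean ± SD, n = 3), followed by YARS with 105 ± 9.3 and QARS with 92.6 ± 1.2 RPKM. In untreated MM1S cells GARS (132 ± 39 RPKM) and YARS (124 ± 30 RPKM) led again and overlapped each other. The highest mitochondrial member was IARS2, the isoleucine enzyme, at 45.3 ± 2.5 RPKM in MM1R and 50.3 ± 3.3 RPKM in MM1S cells. At the lower end of the members that could be tested stood CARS (6.14 ± 0.14 and 6.33 ± 1.7 RPKM), the proline enzyme PARS2 (5.47 ± 0.53 and 4.87 ± 0.49 RPKM) and the tryptophan enzyme WARS2 (4.18 ± 0.60 and 3.68 ± 0.11 RPKM), and below them VARS at 0.922 ± 0.11 and 1.07 ± 0.049 RPKM. The cysteine enzyme of the cytosol was thus listed far below the other cytosolic ones except VARS and, in MM1S cells, TARSL2 (7.41 ± 1.0 RPKM).

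For 2 mitochondrial members nothing could be compared. VARS2 was listed at 0 counts in all 18 libraries and SARS2 at 0 in 17, with 1 count in the remaining one, and neither passed the filter on low counts. VARS, the cytosolic valine enzyme, had only 41 to 89 counts per library. Within 500 kb of VARS, 54 of 64 protein-coding genes (84.38%) had at most 3 counts in every library, as had 20 of 32 (62.5%) around VARS2 and 17 of 33 (51.52%) around SARS2, against 5348 of 18894 (28.31%) protein-coding genes over the whole annotation. Of the sequence of VARS2, 97.31% of all 50-base stretches also occurred in another annotated gene, and of SARS2 77.01%. Whether these genes are silent or were lost in read assignment was not tested, and their levels are not interpreted.

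RSL3 was compared with no treatment in each line and averaged over both lines, with edgeR's quasi-likelihood test and Benjamini-Hochberg adjustment over all 14281 genes tested. Of the 35 members tested, 2 rose in MM1R cells (GARS and TARS) and none fell, where 2.00% of all genes were called higher and 1.36% lower. In MM1S cells 1 rose (GARS) and none fell, where 2.50% of all genes were called higher and 1.17% lower. Averaged over the lines 5 rose (GARS, TARS, CARS, WARS and WARS2) and 2 fell (MARS2 and QARS), against 8.70% of genes called higher and 6.81% lower. By place, 4 of 20 cytosolic members rose and 1 fell, and 1 of 15 mitochondrial members rose and 1 fell. At an unadjusted p under 0.05 there were 6 of the 35 members in MM1R, 7 in MM1S and 9 averaged. Over all 14281 genes tested there were 2639, 2779 and 4313. Without the untreated MM1S library of passage 22, 4 members were called in MM1S (CARS, GARS, MARS and TARS) and 9 averaged (QARS was lost, and MARS, SARS and YARS were added). Without the RSL3-treated MM1S library of passage 16, 0 were called in MM1S and the same 7 averaged. Both libraries were set apart by the levels of the members themselves, so calls gained or lost without them are not independent evidence. The share of all genes called in these fits is not given. The averaged medians were 0.03 (log2 fold change) for the cytosolic and -0.08 for the mitochondrial members, against 0.00 for all genes, so most members lay close to no change and a few stood far from the rest. Without the RSL3-treated MM1S library of passage 16 the mitochondrial median was -0.03 averaged, and in MM1S it went from -0.06 to 0.05.

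**Figure D1:**
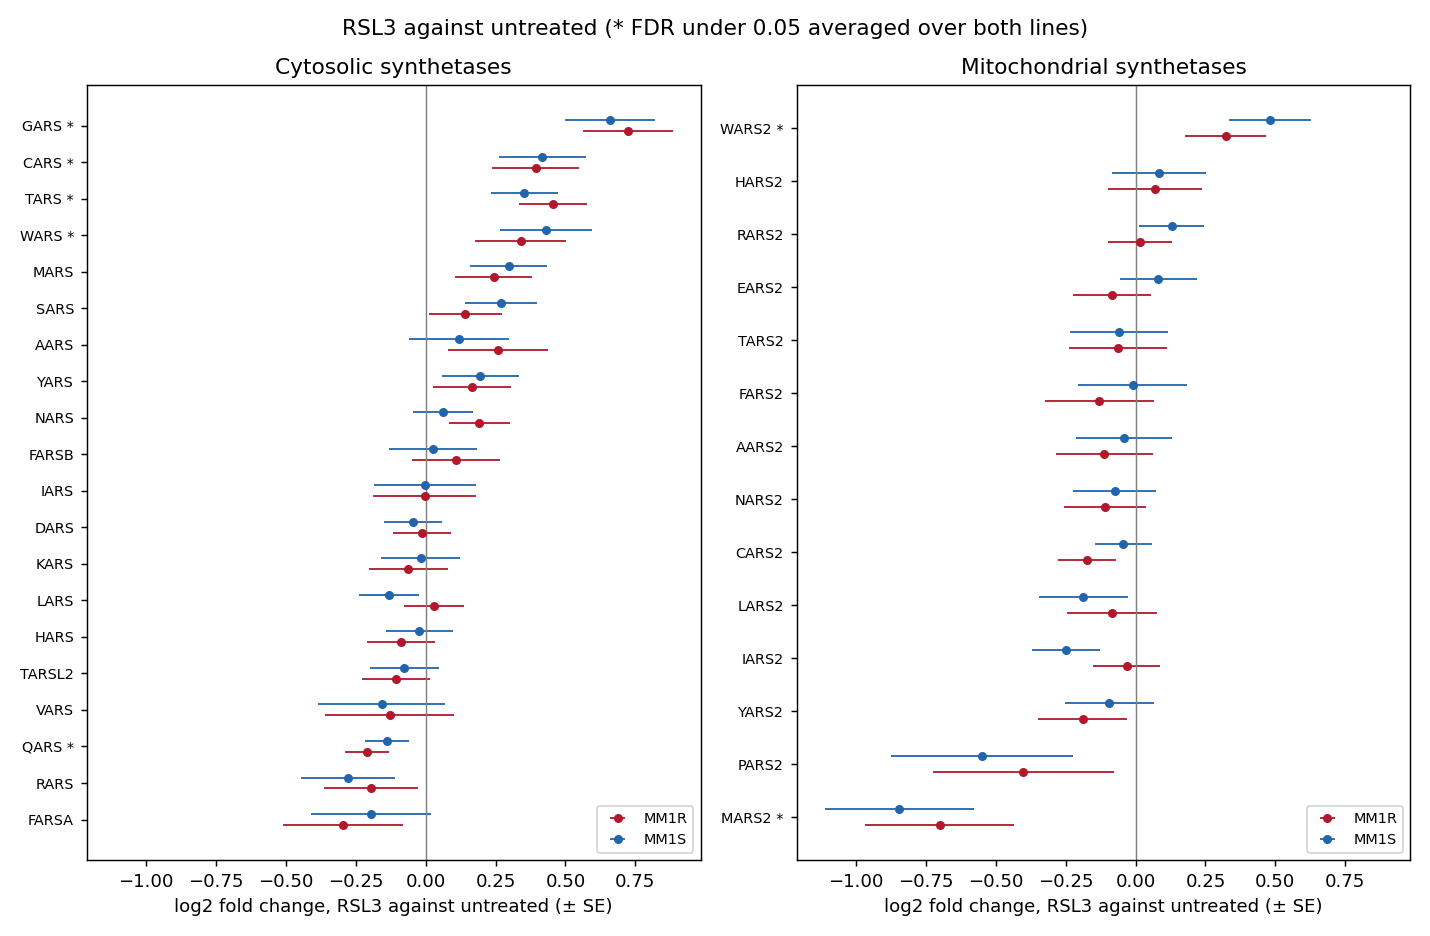
Log2 fold change of the 20 cytosolic and 14 of the 15 tested mitochondrial members after RSL3 against no treatment in MM1R and MM1S cells, with bars of 1 SE. GARS (0.72 and 0.66) is the highest and MARS2 (-0.70 and -0.84) the lowest member in both lines. Stars mark members called in the averaged comparison.

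GARS, the glycine enzyme (hg19 chr7:30620149-30673649, plus strand, 17 exons), was the most changed cytosolic member. In untreated MM1R cells its level was 288, 319 and 283 CPM at passages 4, 6 and 7, and with RSL3 it was 513, 459.9 and 497 CPM. In MM1S cells it was 242, 428 and 295 CPM untreated at passages 16, 22 and 23, and 576, 504 and 443 CPM with RSL3. All RSL3 libraries lay above all untreated libraries of their line, and the untreated library of passage 22 came close to the lowest treated one. The log2 fold change was 0.72 ± 0.16 (SE) in MM1R (FDR 0.0225), 0.66 ± 0.16 in MM1S (FDR 0.0315) and 0.69 ± 0.11 averaged (FDR 0.000866). Of the 18 fits that left out 1 library, 5 lost the MM1R call (FDR up to 0.0872) and 4 the MM1S call (FDR up to 0.158). The MM1S call was lost, for 1, without the RSL3 library of passage 16 (0.56, FDR 0.135). Without the untreated library of passage 22 the MM1S change was 0.92. The averaged call held in all 18 fits that left out 1 library (0.60 to 0.82).

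TARS, the threonine enzyme (hg19 chr5:33440802-33468196, plus strand, 19 exons), had 203, 209.8 and 199 CPM in untreated and 272, 271 and 295 CPM in RSL3-treated MM1R cells. In MM1S cells the levels were 225, 337 and 255 CPM untreated and 370.0, 328 and 347 CPM with RSL3. The MM1R groups did not overlap, whereas in MM1S the untreated library of passage 22 lay above one treated library. The log2 fold change was 0.45 ± 0.12 in MM1R (FDR 0.0499, lost in 15 of 18 fits without 1 library), 0.35 ± 0.12 in MM1S (FDR 0.117) and 0.40 ± 0.09 averaged (FDR 0.00496, held in all 18). With passage as a block the MM1S value had an FDR of 0.0478.

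CARS, the cysteine enzyme (hg19 chr11:3022152-3078843, minus strand, 23 exons), had 16.5, 16.7 and 17.2 CPM in untreated and 26.0, 19.985 and 20.2 CPM in RSL3-treated MM1R cells. In MM1S cells CARS had 14.4, 22.8 and 14.7 CPM untreated and 22.3, 25.5 and 21.4 CPM with RSL3. Here too only the untreated library of passage 22 reached into the treated range. Averaged over the lines CARS rose by 0.40 ± 0.11 (log2, FDR 0.0210), a call that 15 of 18 fits without 1 library kept.

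WARS, the tryptophan enzyme of the cytosol, which interferon also induces (hg19 chr14:100800127-100843142, minus strand, 11 exons), had 64.4, 79.4 and 72.2 CPM in untreated and 94.5, 101 and 78.3 CPM in RSL3-treated MM1R cells. In MM1S cells WARS had 60.1, 90.4 and 72.0 CPM untreated and 90.3, 117 and 92.2 CPM with RSL3. The groups overlapped in both lines, yet at each passage the treated library was the higher one, and the averaged change was 0.39 ± 0.12 (FDR 0.0336, kept in 11 of 18 fits without 1 library). With passage as a block WARS was also called in MM1R (FDR 0.0441) and in MM1S cells (FDR 0.0153).

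QARS, the glutamine enzyme (hg19 chr3:49133365-49142563, minus strand, 24 exons), went the other way by a small amount. It had 224, 226 and 229.85 CPM in untreated and 196, 198 and 194 CPM in RSL3-treated MM1R cells, which did not overlap. In MM1S cells QARS had 218, 208 and 197.5 CPM untreated and 199, 188 and 181 CPM with RSL3, which did. The averaged log2 fold change was -0.17 ± 0.06 (FDR 0.0444), and the call was kept in only 1 of the 18 fits without 1 library.

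Among the mitochondrial members, MARS2, the methionine enzyme (hg19 chr2:198570093-198573119, plus strand, a single exon), fell most. MARS2 had 47.2, 50.2 and 54.3 CPM in untreated and 24.8, 39.4 and 29.1 CPM in RSL3-treated MM1R cells. In MM1S cells it had 55.2, 51.6 and 55.0 CPM untreated and 13.5, 34.9 and 41.4 CPM with RSL3. No treated library reached an untreated one, and the treated ones spread widely. The averaged change was -0.77 ± 0.19 (FDR 0.0120), and -0.59 without the MM1S library of passage 16, still called. In single lines the change missed the threshold (-0.70 ± 0.27, FDR 0.167 in MM1R and -0.84 ± 0.27, FDR 0.0869 in MM1S), and with passage as a block the MM1S value passed it (-0.94, FDR 0.0214).

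WARS2, the mitochondrial tryptophan enzyme (hg19 chr1:119573839-119683277, minus strand, 6 exons), had 10.1, 11.4 and 13.4 CPM in untreated and 13.7, 14.2 and 15.8 CPM in RSL3-treated MM1R cells. In MM1S cells WARS2 had 10.4, 9.93 and 10.5 CPM untreated and 15.6, 13.2 and 14.2 CPM with RSL3. The groups did not overlap in either line, and the averaged change was 0.40 ± 0.10 (FDR 0.0151, held in all 18 fits without 1 library). PARS2, the mitochondrial proline enzyme, had the next smallest p but was not called (-0.48 ± 0.23 averaged, FDR 0.174). It had 12.003, 12.4 and 14.3 CPM in untreated against 8.66, 14.8 and 5.81 CPM in treated MM1R cells, and 10.8, 10.8 and 12.8 CPM against 3.42, 10.1 and 9.87 CPM in MM1S cells, so that its lowest value lay in the library of passage 16.

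**Figure D2:**
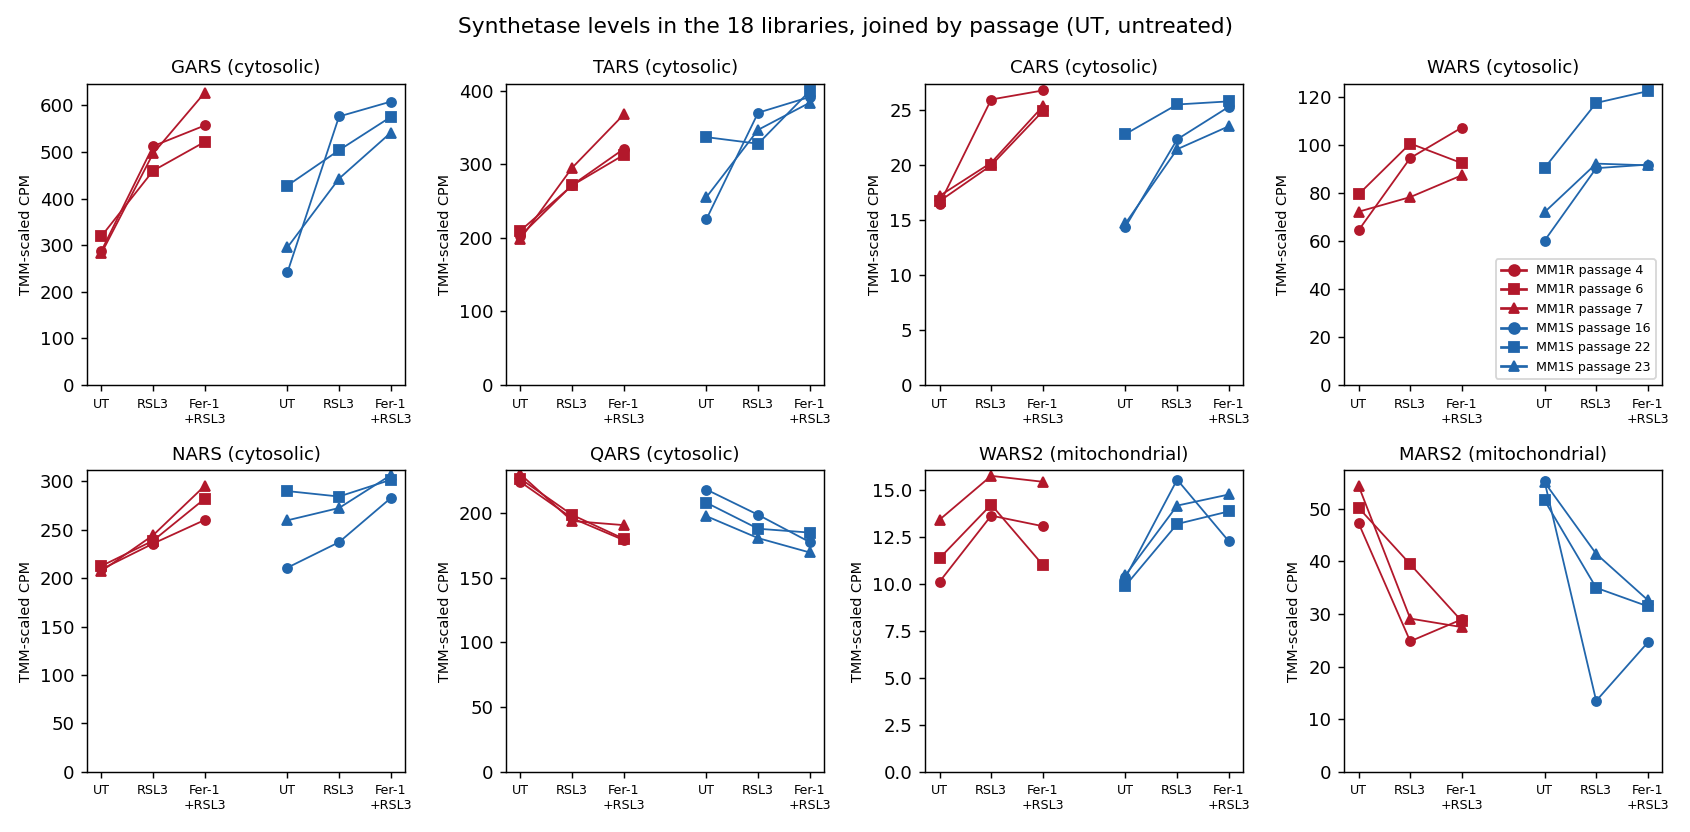
Level (TMM-scaled CPM, each axis from 0) of 8 members in each of the 18 libraries by treatment, with a line and symbol for each passage, MM1R in red and MM1S in blue. GARS and TARS go up from untreated to RSL3 except TARS at passage 22 (337 to 328 CPM), and MARS2 is lower in every treated library than in the untreated ones.

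The passages paired the libraries within a line, so each treated library was also set against the untreated one of its passage. AARS, CARS, GARS, SARS and WARS were higher with RSL3 at 6 of 6 passages and QARS was lower, 5 and 1 of the 20 cytosolic members, where 13.8% of all genes were higher and 14.8% lower at every passage. Of the 15 mitochondrial members WARS2 was higher and IARS2, MARS2, NARS2 and YARS2 were lower at 6 of 6 passages. The smallest differences among these were near 0, such as 0.00 (log2 CPM) for AARS and -0.01 for IARS2, and the largest were 1.25 for GARS and -2.02 for MARS2. With passage as a block in the model, 4 members were called in MM1R (GARS, TARS and WARS higher, QARS lower), where 13.1% of all genes were called in either direction. In MM1S 7 were called (CARS, GARS, SARS, TARS, WARS and WARS2 higher, MARS2 lower), against 13.3% of genes. Averaged, 12 were called, adding AARS, MARS, SARS and YARS higher and FARSA lower to the 7 above, against 30.4% of genes.

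Summed over the tested members, the ratio of cytosolic to mitochondrial synthetase transcripts went up with RSL3. In MM1R cells the ratio of the cytosolic to the mitochondrial sum was 4.015, 4.002 and 3.59 untreated, 4.95, 4.36 and 4.66 with RSL3 and 5.04, 4.88 and 4.90 with Fer-1 and RSL3 at passages 4, 6 and 7. In MM1S cells it was 3.75, 4.73 and 3.85 untreated, 5.92, 4.90 and 4.52 with RSL3 and 5.40, 5.44 and 4.89 with Fer-1 and RSL3 at passages 16, 22 and 23. The ratio was higher with RSL3 than without at 6 of 6 passages, by the least at passage 22, and the MM1R groups did not overlap. The mitochondrial sum was lower with RSL3 at every passage except passage 6 of MM1R (778.2 to 787.8 CPM). It changed little at passages 22 (817.5 to 794.8 CPM) and 23 (853.7 to 838.8 CPM) of MM1S. The most abundant members dominate such sums. GARS, the member that rose most, encodes both forms and was counted as cytosolic only, and no ratio was computed without it. The averaged median change of the cytosolic members took either sign when single libraries were left out (-0.02 to 0.10).

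**Figure D3:**
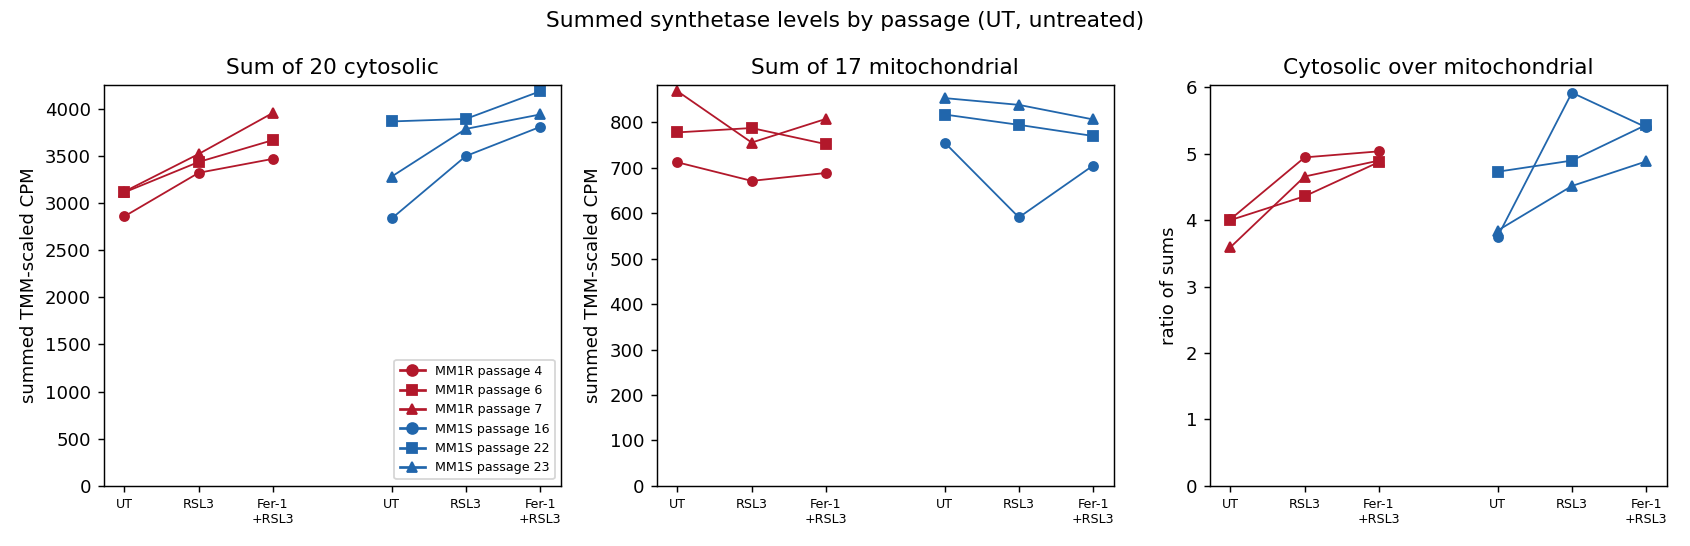
Summed level in CPM of the 20 cytosolic and the 15 tested mitochondrial members (of the 17 in the panel title), and the ratio of the sums. Values are by treatment with a line for each passage. The ratio goes up from untreated to RSL3 on all 6 lines, and at passage 16 of MM1S it does so most, from 3.75 to 5.92.

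Among the cytosolic members, 7 belong to the multisynthetase complex (DARS, IARS, KARS, LARS, MARS, QARS and RARS), which also holds EPRS and the scaffold proteins AIMP1, AIMP2 and EEF1E1. In the averaged RSL3 comparison, where 8.70% of all genes were called higher and 6.81% lower, 0 of these 7 rose and 1 fell, with a median of -0.04 and a range of -0.24 to 0.27. The fall was that of QARS, whose call few fits without 1 library kept. The highest value was that of MARS, which may share reads with DDIT3, a gene on the opposite strand. Of the 13 members outside the complex 4 rose (GARS, TARS, CARS and WARS) and none fell, with a median of 0.18. EPRS itself was not called (0.25 ± 0.10, FDR 0.0973), and with passage as a block it was (0.26, FDR 0.00457). AIMP1 (-0.02, FDR 0.898), AIMP2 (-0.03, FDR 0.893) and EEF1E1 (-0.35, FDR 0.151) were not called. The fit with passage as a block called 2 of the 11 genes of the complex higher and 2 lower, where 14.9% of all genes were called higher and 15.5% lower. The difference between members inside and outside the complex was not tested.

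Fer-1 and RSL3 was compared with RSL3 alone to see which levels the inhibitor moved. None of the 35 members was called by edgeR in MM1R (0% of all genes called), in MM1S (0%) or averaged (0.119%, 17 genes), and none by DESeq2. At an unadjusted p under 0.05 there was 1 member in MM1R (TARS), 0 in MM1S and 2 averaged. These were NARS (0.19 ± 0.08, FDR 0.312) and TARS (0.21 ± 0.09, FDR 0.315). Over all genes tested there were 881 in MM1R, 821 in MM1S and 1826 averaged. GARS had 557, 522 and 627 CPM with both agents in MM1R cells and 608, 575 and 541 CPM in MM1S cells. TARS had 321, 313 and 368 CPM and 391, 399.5 and 384 CPM. For TARS all 6 of these values lay above every RSL3 library of their line, and for GARS all 3 in MM1R and 1 of 3 in MM1S cells did. The MM1R values of passage 6 come from the library that showed MM1S marker genes. In MM1S cells the median log2 fold change of the cytosolic members was 0.08, and -0.02 without the RSL3-treated library of passage 16.

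GARS, CARS, TARS, NARS, IARS and YARS, 6 of the 20 cytosolic members, and AARS2 of the 15 mitochondrial ones were higher with both agents than with RSL3 at 6 of 6 passages, where 8.05% of all genes were. QARS was lower at 6 of 6, where 6.56% of all genes were, with 179, 180.0 and 191 CPM in MM1R and 177, 185 and 169 CPM in MM1S cells. MARS2 remained low, at 29.0, 28.6 and 27.5 CPM in MM1R and 24.6, 31.4 and 32.6 CPM in MM1S cells. WARS2 had 13.1, 11.03 and 15.5 CPM in MM1R and 12.3, 13.9 and 14.8 CPM in MM1S cells, which overlapped the RSL3 libraries.

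Against untreated cells, Fer-1 and RSL3 gave 5 calls in MM1R cells. GARS (0.94 ± 0.16, FDR 0.00257), TARS (0.71 ± 0.12, FDR 0.00255), CARS (0.61 ± 0.16, FDR 0.0226) and NARS (0.41 ± 0.11, FDR 0.0265) rose and QARS fell (-0.31 ± 0.08, FDR 0.0233), where 5.57% of all genes were called higher and 3.66% lower. Without the passage 6 library that stood apart, 2 of these calls were left (GARS and TARS). In MM1S cells GARS (0.84 ± 0.16, FDR 0.00660) and TARS (0.52 ± 0.12, FDR 0.0206) rose, where 2.60% of genes were called higher and 2.02% lower. Without the untreated library of passage 22 there were 5 calls in MM1S. The share of all genes called in the fits that left out a library is not given. With passage as a block there were 11 calls in each line, against 22.2% of genes in MM1R and 14.7% in MM1S. This comparison shares its untreated libraries with that of RSL3 alone and its treated libraries with the preceding one, and the values are given side by side only.

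NARS, the asparagine enzyme (hg19 chr18:55267888-55289445, minus strand, 14 exons), had 209, 213 and 207 CPM untreated, 236, 239 and 244 CPM with RSL3 and 260.1, 282 and 295 CPM with both agents in MM1R cells, 3 groups that did not overlap. In MM1S cells NARS had 211, 289.9 and 259.7 CPM, 237, 284 and 272 CPM, and 283, 302 and 306 CPM. There all 3 groups overlapped. CARS had 26.8, 24.9 and 25.4 CPM with both agents in MM1R and 25.3, 25.8 and 23.5 CPM in MM1S cells, and WARS 107, 92.4 and 87.4 CPM and 91.8, 122 and 91.5 CPM.

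The 7 cytosolic members with the response element in the printed windows and the 8 whose promoter lacked it (FARSA, FARSB, HARS, KARS, QARS, RARS, SARS and WARS) are described side by side. In the averaged RSL3 comparison 3 of the 7 rose (GARS, TARS and CARS), against 8.70% of all genes called higher, with a median log2 fold change of 0.27 and a range of 0.00 (IARS) to 0.69 (GARS). That median was the value of MARS, which may share reads with DDIT3 on the opposite strand. Of the 8 without it WARS rose and QARS fell, against 6.81% of all genes called lower. The median of these 8 was -0.05 and their range -0.25 to 0.39. Between both agents and RSL3 alone, all 7 had a positive log2 fold change in both lines, from 0.09 to 0.26 in MM1R and from 0.05 to 0.18 in MM1S cells, and 5 of them were higher at 6 of 6 passages. Of the 8 without it 0 were higher and 1 was lower (QARS) at 6 of 6 passages, where 8.05% of all genes were higher and 6.56% lower. None of these differences was called, and both comparisons share the RSL3 libraries. For both agents against RSL3 alone, 13 of all 20 cytosolic members had a positive value in MM1R and 16 in MM1S cells. The share of all genes is not given. Without the RSL3-treated library of passage 16 the median of the cytosolic members in MM1S cells was -0.02 in place of 0.08. Left out of this split were YARS2, the mitochondrial member with the element, and 5 cytosolic members without a promoter sequence (DARS, LARS, TARSL2, VARS and YARS). YARS2 was lower with RSL3 at 6 of 6 passages, where 14.8% of all genes were. None of the 5 was called with RSL3 averaged (median -0.05), and YARS was higher with both agents than with RSL3 at 6 of 6 passages.

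The antioxidant response element, searched as TGACNNNGC on both strands, was found in the promoters of 6 of the 29 members (TARS, GARS, WARS, KARS, RARS2 and NARS2), against 16.06% of all genes with a promoter, and none of these matches overlapped a C/EBP-ATF match.

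**Figure D4:**
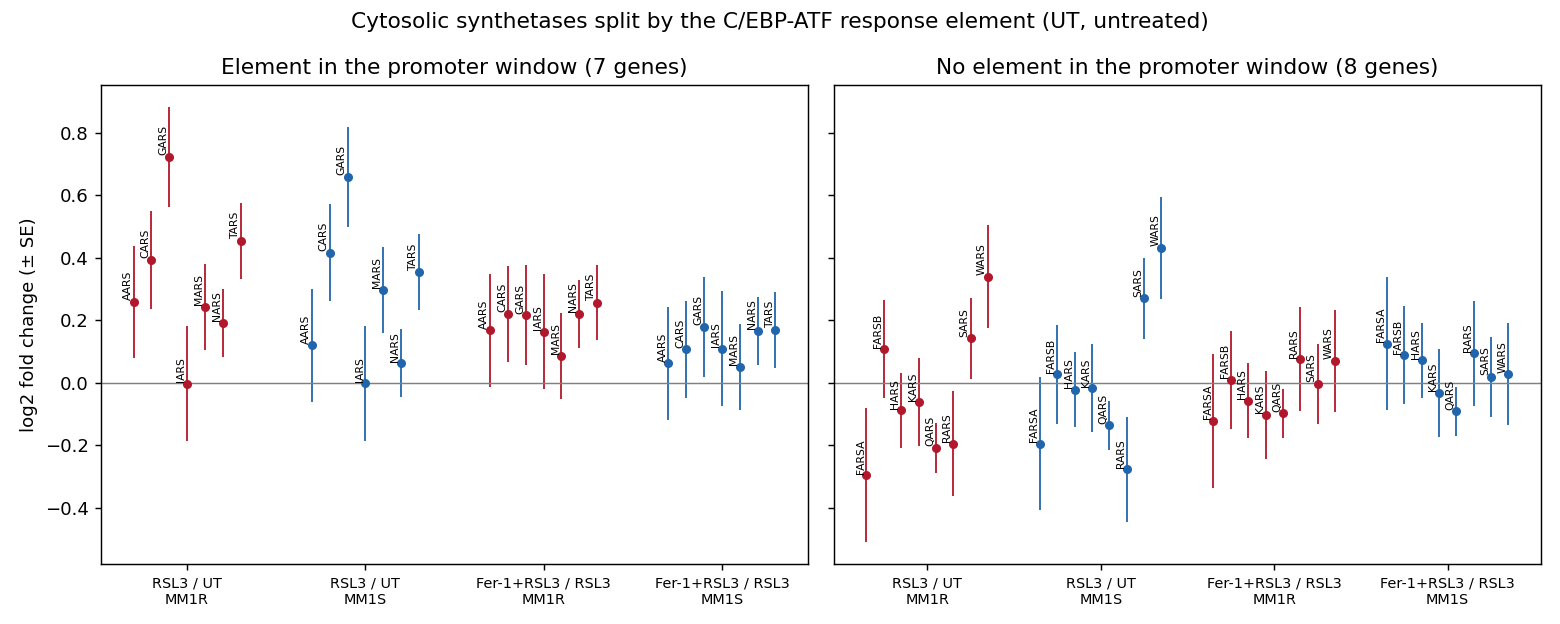
Log2 fold change (points, with bars of 1 SE) of the 7 cytosolic members with and the 8 without the letters TGATGNAA in their promoter, for RSL3 against untreated and for Fer-1 and RSL3 against RSL3, in MM1R (red) and MM1S (blue). With RSL3 in MM1R, members with the letters reach from 0.00 to 0.72 and those without from -0.30 to 0.34.

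The difference between the lines in their RSL3 change was tested as an interaction. No member passed in the edgeR test (0% of all genes called), with 0 members and 222 genes at an unadjusted p under 0.05, and DESeq2 called none of the members. The smallest p among the members were those of IARS2 (difference of log2 fold changes 0.22 ± 0.17, FDR 0.9999) and LARS, the leucine enzyme (0.16 ± 0.15, FDR 0.9999). IARS2 had 155, 170.4 and 155 CPM untreated and 149.9, 169 and 151 CPM with RSL3 in MM1R cells, and 169, 173 and 191 CPM against 121, 160.0 and 167 CPM in MM1S cells. LARS had 161, 162 and 156 CPM against 155, 165 and 169 CPM in MM1R, and 161, 147 and 146 CPM against 128, 142 and 143 CPM in MM1S cells.

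Between the untreated lines, 1 member was higher and 2 were lower in MM1R than in MM1S cells, where 5.50% of all genes were called higher and 4.99% lower. TARSL2, the threonine enzyme-like gene (hg19 chr15:102193799-102264676, minus strand), had 49.9, 46.4 and 42.9 CPM in MM1R and 29.9, 24.2 and 23.3 CPM in MM1S cells (log2 0.85 ± 0.12, FDR 0.000477). DARS, the aspartate enzyme (hg19 chr2:136663451-136743670, minus strand), had 57.2, 61.5 and 64.1 CPM in MM1R and 83.9, 80.9 and 85.0 CPM in MM1S cells (-0.45 ± 0.10, FDR 0.0112). Neither pair of groups overlapped. TARS was the third (-0.42 ± 0.12, FDR 0.0365), and without the untreated MM1S library of passage 22 it was not called (-0.22, FDR 0.272). NARS (-0.27 ± 0.11, FDR 0.124) and HARS, the histidine enzyme (0.29 ± 0.12, FDR 0.144), followed without a call. HARS had 73.8, 83.3 and 88.8 CPM in MM1R and 76.4, 64.0 and 60.9 CPM in MM1S cells. The block on passage gave 6 calls (AARS, DARS, HARS, NARS, TARS and TARSL2), against 24.1% of all genes. No passage is shared between the lines, so the block was fitted within each line and does not pair the lines. It leaves the spread between passages out of the error, and these calls are weaker evidence than those without it.

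The untreated MM1S library of passage 22 was high in GARS, TARS, CARS, WARS and several other cytosolic members. Its level of AARS, the alanine enzyme, was 454 CPM, against 253 and 343 CPM at passages 16 and 23. Its deviation from the other untreated MM1S libraries followed the RSL3 change measured in MM1R cells, with which it shares no library, with r = 0.794 (Spearman's rho 0.770) over the 20 cytosolic members and r = 0.675 over all 35, against r = 0.0536 over all genes tested. Over the cytosolic members the other 5 untreated libraries gave r from -0.659 to 0.551. These are correlations across genes within 1 library, the genes share that library and the same RSL3 contrast, and the pattern was noticed in these data. CHAC1, 1 of 9 tested ATF4 pathway genes, had 58.7 CPM in this library and 4.66 and 16.01 CPM in the other untreated MM1S libraries. The levels of the rest of that list in this library are not given here, and no cause of the deviation was tested.

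**Figure D5:**
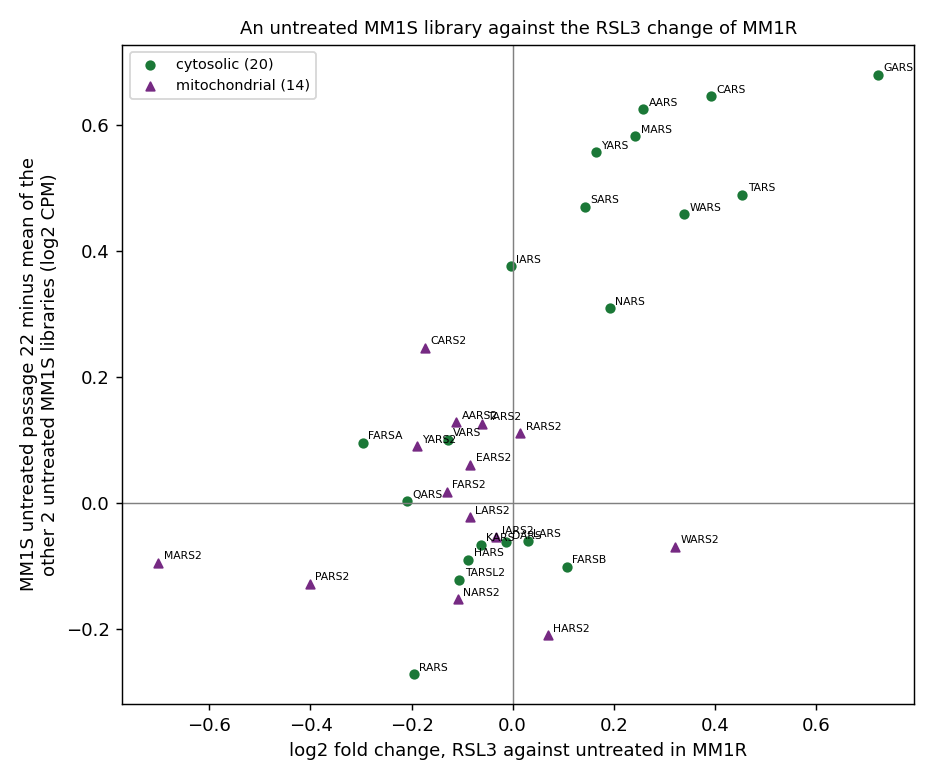
For the 20 cytosolic and 14 of the 15 tested mitochondrial members, the log2 CPM of the untreated MM1S library of passage 22 minus the mean of the other untreated MM1S libraries (vertical axis) against the log2 fold change with RSL3 in MM1R cells (horizontal axis). GARS, CARS and TARS lie at the upper right, and MARS2 lies far to the left near 0 on the vertical axis.

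Genes around the synthetases were counted from 5 lists. In the averaged RSL3 comparison, to which all counts of calls on these lists refer, 8.70% of all genes were called higher and 6.81% lower. Of 9 tested ATF4 pathway genes 8 rose, among them ATF4 (0.91 ± 0.14, FDR 0.000468), the asparagine synthetase gene ASNS (1.20 ± 0.30, FDR 0.0131), the transcription factor gene DDIT3 (2.55 ± 0.29, FDR 6.601e-05) and TRIB3 (0.65 ± 0.16, FDR 0.0133). Their median, 1.20, was larger than the change of any synthetase. DDIT3 overlaps exons of MARS on the opposite strand, and with the strand setting unknown the 2 genes may share reads. Of 7 genes of the eIF2 kinase arm the kinase genes EIF2AK3 (1.56 ± 0.27, FDR 0.00122) and EIF2AK4 (0.43 ± 0.10, FDR 0.00913) rose and GCN1, an activator of EIF2AK4, fell (-0.35 ± 0.11, FDR 0.0467).

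In the same comparison, with its 8.70% of all genes called higher and 6.81% lower, 2 of 9 tested partners of the synthetases outside the naming rule rose and 1 fell. SEPSECS (0.39 ± 0.10, FDR 0.0167) and PSTK (0.87 ± 0.18, FDR 0.00444), which act one after the other to make selenocysteinyl-tRNA, rose, and ANKRD16, a cofactor of AARS, fell (-0.64 ± 0.13, FDR 0.00323). Selenocysteine is the residue in the active site of GPX4. None of the 4 enzymes that complete mitochondrial Gln-tRNA and fMet-tRNA was called, with 0 higher and 0 lower and a median of -0.17, and of 9 mitochondrial translation factors 1 fell (MTRF1, -0.42 ± 0.12, FDR 0.0229). For Fer-1 and RSL3 against RSL3 averaged over the lines, none of the genes on these 5 lists was called.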

How the data were processed

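RNA was extracted with a column kit, and the authors sequenced it on a BGISEQ-500 in pairs of 50 bp, checked the reads with FastQC 0.11.5, aligned to hg19 with STAR 2.7.3a and deposited raw counts for 43735 genes, named by symbol. The counting tool, annotation and use of strand are not given in the sources used here, and overlapping genes (MARS and DDIT3, HARS and HARS2) are uncertain. A second table, of counts divided by size factors, was not used.

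From the deposited counts, genes were kept with filterByExpr (minimum count 10), which left 14281, and scaled by TMM. In R 4.3.3 with edgeR 4.0.16, 1 model of 6 group means over all 18 libraries (12 residual degrees of freedom) was compared by the quasi-likelihood test with Benjamini-Hochberg adjustment over all genes, and an FDR under 0.05 was a call. Errors of log2 fold changes are the change divided by the root of F. CPM are TMM-scaled and RPKM divide them by the canonical transcript length. Alternatives were DESeq2 1.42.0, RLE and upper-quartile scaling, no filter or a stricter one, a threshold of 1 on the log2 fold change, only the groups compared, the passage as a block and each library left out. The fits were also run on simulated data, in which 200 genes changed. The simulation had the same spread for every gene and no passage effect. How the fits do under the spread of these libraries was not tested.

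The members and lists were chosen with earlier results of these data known. Values in every library are given for members called with RSL3 or in a Fer-1 comparison, the 3 mitochondrial members of smallest p, up to 5 for the lines, 2 for the interaction, and members that failed the filter. By name, 1 member is not reported here, though the counts and sums include it. Of the other lists, named are EPRS, AIMP1, AIMP2, EEF1E1, ATF4, ASNS, DDIT3, TRIB3 and up to 4 called genes a list. Positions are from an hg19 annotation, which matched 37 of 37 members, and promoters are from RefSeq.

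Replicate numbers stand for passages in the labels. Libraries of the same passage deviated together from their group means, with a median correlation of 0.250 in MM1R (0.0338 to 0.516, 9 pairs) and 0.416 in MM1S cells (0.216 to 0.681, 9 pairs). Passages of 1 line are not separate donors, so p-values without the block measure the spread between passages only. Those with passage as a block measure the spread that is left after the passages are accounted for.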

Additional observations from a re-analysis of the deposited data

How the results depend on the processing

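No called value changed direction under the alternatives run, but the number of members called did depend on the fit. With passage as a replicate block the counts were 4 (RSL3, MM1R), 7 (RSL3, MM1S), 12 (RSL3, averaged), 11 and 11 (Fer-1 and RSL3 against untreated, MM1R and MM1S) and 6 (MM1R against MM1S, where the block is within lines and pairs nothing across them), in place of 2, 1, 7, 5, 2 and 3, and it changed no call for Fer-1 and RSL3 against RSL3 or the interaction. With a log2 fold change over 1 as well, 0 members were called in all 6. RLE scaling gave 1 for RSL3 in MM1R. DESeq2 gave 3 for RSL3 in MM1S and 5 for Fer-1 and RSL3 against untreated in MM1S. No filter gave 2 for RSL3 in MM1S and 1 between the lines, and only the groups compared gave 0 for RSL3 in MM1S. In the same order as above, the fits with the block called 13.1%, 13.3%, 30.4%, 22.2%, 14.7% and 24.1% of all genes in either direction. For the other alternatives the share of all genes called is not given, so their counts are not a result about the members alone. The cause of these shifts was not tested.

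Leaving out 1 library at a time gave 0 to 3 calls for RSL3 in MM1R, 0 to 4 in MM1S and 4 to 9 averaged. For Fer-1 and RSL3 against untreated it gave 2 to 6 in MM1R and 1 to 5 in MM1S, and between the lines 1 to 6. The share of all genes called in these fits is not given either. The median log2 fold change of the cytosolic members ranged from 0.001534 to 0.1208 for RSL3 in MM1R, from -0.02626 to 0.1416 in MM1S and from -0.01883 to 0.1012 averaged, and from -0.02344 to 0.119 for Fer-1 and RSL3 against RSL3 in MM1S. That of the mitochondrial members ranged from -0.1097 to 0.05138 for Fer-1 and RSL3 against RSL3 in MM1R. With 3 libraries a group, whether a change was called depended on its spread as much as on its size: QARS (-0.17 ± 0.06, FDR 0.0444) was called in the averaged RSL3 comparison and PARS2 (-0.48 ± 0.23, FDR 0.174) was not.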

Other observations

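By the structural class of the enzyme, which the comparisons did not use, 3 of 17 tested class I members rose (CARS, WARS and WARS2) and 2 fell (MARS2 and QARS) in the averaged RSL3 comparison, where 8.70% of all genes were called higher and 6.81% lower. Of 18 tested class II members 2 rose (GARS and TARS) and none fell. In the fit with passage as a block, 5 of class I rose and 2 fell, and 4 of class II rose and 1 fell. That fit called 14.9% of all genes higher and 15.5% lower. No test of a difference between the classes was made.

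Enzymes for the same amino acid did not go together in the cytosol and the mitochondria in every case. Both tryptophan enzymes rose in the averaged comparison (WARS 0.39 ± 0.12, FDR 0.0336, and WARS2 0.40 ± 0.10, FDR 0.0151). For methionine, MARS2 fell (-0.77 ± 0.19, FDR 0.0120), while MARS had 0.27 ± 0.10 (FDR 0.0696) and was not called, but was with passage as a block (0.28, FDR 0.0102). MARS shares exonic bases with DDIT3, and the part of DDIT3 reads in the MARS level was not tested.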
